A study of Mus musculus with 8 samples.

Results

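The solute carriers are a superfamily of membrane proteins that move amino acids, sugars, metal ions, nucleotides, inorganic ions, vitamins and neurotransmitters across cell and organelle membranes. Some use the sodium or proton gradient to load their substrate, some exchange 1 molecule for another, and others let it pass down its own gradient. In brain they feed neurons and glia, fill synaptic vesicles, clear transmitters and set the chloride gradient against which GABA acts, and GABA is the transmitter of most neurons of the suprachiasmatic nucleus (SCN), the seat of the central circadian pacemaker.

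The genes described here are those whose single annotated symbol begins with Slc and a digit. They were chosen by their measured signal: the mean over all 8 arrays had to reach the 40th percentile of all probe set means, a log2 signal of 6.82. Of 364 such genes with a probe set of 1 symbol, 135 lay below that level and 7 were left out by name, which left 222 of the 12452 genes tested. The 7 left out were Slc6a3, Slc18a2, Slc1a2, Slc1a3, Slc6a13, Slc6a20a and Slc13a4. Just outside the level lay Slc40a1 (mean log2 signal 6.79) and Slc6a12 (6.81), and just inside it Slc25a45 (6.85) and Slc52a3 (6.86). The 222 means ran from 6.85 to 12.19 with a median of 8.52, and the genes were spread over 20 chromosomes. The rule reads symbols only. The 222 called solute carrier genes below thus include some named after a carrier and placed in no substrate list: Slc9a3r1, Slc9a3r2, Slc4a1ap, Slc7a6os and Slc2a4rg-ps.

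All mice were C57BL/6J and were either wild type or Gpr176-/-, that is, without an orphan receptor of the G protein-coupled class found in SCN neurons. Before sampling in constant darkness they had lived under 12 h of light and 12 h of dark for over 2 weeks. Sampling was at circadian time 6 (CT6), in the subjective day, or circadian time 18 (CT18), in the subjective night. Each of the 4 groups (wild type at CT6, wild type at CT18, knockout at CT6, knockout at CT18) has 2 arrays, A and B, each from the laser-dissected SCN of 10 pooled animals, so that the spread between animals is not seen. The deleted part of Gpr176, and the age and sex of the mice, are not stated in the labels. In tissue samples of this kind, fewer cells of a type and less RNA per cell cannot be told apart.

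The targeted gene went with the labels: Gpr176 had log2 signals of 9.37, 9.31, 9.73 and 9.87 on the wild-type arrays and 8.08, 8.02, 8.42 and 8.56 on the knockout arrays. All 7 SCN neuron markers (among them Avp, Vip and Six6) passed the level filter, and the 3 markers of glutamatergic neurons outside the SCN (Slc17a7, Tbr1, Neurod6) lay below it on average. Markers of leptomeninges, the membranes next to the SCN, differed between arrays of 1 group. Their mean log2 signal was 8.15 in wild type at CT18 A and 8.06 in the knockout at CT6 A, 7.89 in wild type at CT6 B and between 7.44 and 7.59 on the other arrays. In wild type at CT18, though, Col1a1 and Col3a1 were lower on A (7.48 and 6.78) than on B (7.61 and 6.89). None of the 11 of these 15 leptomeningeal markers above the filter was called in any contrast. The results were fitted again without both arrays of the highest level (added after seeing the data) and with the marker mean as a covariate. The mean of oligodendrocyte markers also differed between arrays of wild type at CT18 (9.77 on A, 9.39 on B). It was not used as a covariate.

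Between CT6 and CT18, over both genotypes, 42 of the 222 genes changed at an adjusted p under 0.05 (limma, Benjamini-Hochberg over all genes tested). At CT18, 19 genes were higher (8.56% of the 222, against 10% of all genes tested) and 23 were lower (10.4%, against 6.79%). The share of solute carriers called either way was 18.9%, beside 16.8% of all genes, so the family as a whole stood near the background. The median difference of the 222 was -0.00154 on the log2 scale, and that of all genes 0.0104. Few called genes passed 1.5-fold: 1 of the 42, the myo-inositol transporter Slc2a13, beside 113 of the 2096 called among all genes tested. Among the 42, 10 rises and 14 falls were of 0.2 or more, and 9 rises and 9 falls were under 0.2. All 42 had the same sign in both genotypes, and in 33 of them the 4 arrays of CT18 did not overlap the 4 of CT6. The genes were called on the mean of the 2 genotypes, which favours both of these traits. Among all 222 the times did not overlap in 44, and among all genes in 21%. Of the 7 genes left out by name, Slc6a3 (0.66) and Slc1a3 (0.16) were called higher at CT18, Slc18a2 (-0.19) was called lower, and the other 4 were not called. The count of changed genes was lower in each fit without 1 array. It was also lower with both arrays of the highest leptomeningeal signal left out, an alternative added after seeing the data. Such fits have fewer degrees of freedom for every gene, and the share of all genes called in them was not compared.

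**Figure D1:**
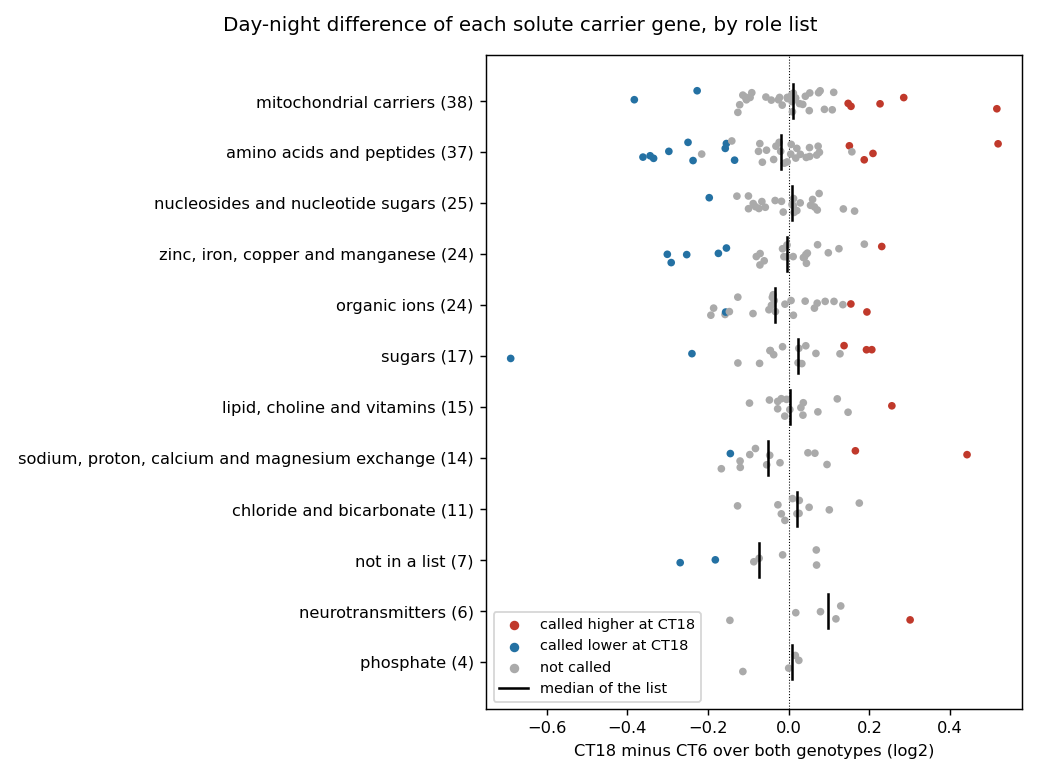
Each point is a solute carrier gene, placed by its CT18 minus CT6 difference over both genotypes (log2, horizontal axis). The substrate lists, set largely by family number, are on the vertical axis, with the number of genes in brackets. Red and blue points were called higher and lower at CT18 by limma, grey points were not called, and black bars are list medians. The amino acid list holds 9 blue points and 4 red ones, and Slc2a13, at -0.69, lies farthest to the left.

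Carriers of sugars and of the sugar alcohol myo-inositol held both directions. Of 17 genes, 3 rose (17.6%, beside 10% of all genes tested) and 2 fell (11.8%, beside 6.79%) at CT18, and the list's median was 0.0231. Slc2a13 encodes a proton-coupled transporter of myo-inositol, the head group of phosphoinositide lipids and an osmolyte of brain. Slc2a13 had log2 signals of 12.04 and 12.15 at CT6 and 11.44 and 11.39 at CT18 in wild type, against 12.01 and 12.13 at CT6 and 11.26 and 11.48 at CT18 in the knockout. All 4 CT6 arrays were above all 4 CT18 arrays, by more than the gap between any 2 arrays of a group. Slc2a13 fell by 0.69 ± 0.0568 (SE) on the log2 scale, so that CT6 was 1.61 times as high as CT18 (limma adjusted p 4.51e-05).

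Another myo-inositol carrier of the list went the opposite way. Slc5a3, which takes up myo-inositol with sodium, had log2 signals of 9.71 and 9.71 at CT6 and 10.01 and 9.97 at CT18 in wild type, against 9.62 and 9.77 at CT6 and 9.79 and 9.82 at CT18 in the knockout. The times did not overlap, but the wild-type arrays lay farther apart than the knockout arrays. Slc5a3 rose by 0.19 ± 0.0430 (adjusted p 0.0141), and the call was lost without knockout CT18 B (adjusted p 0.0516) and without both arrays of the highest leptomeningeal signal (adjusted p 0.114, added after seeing the data). The difference was 0.28 in wild type (adjusted p 0.0236) and 0.11 in the knockout (adjusted p 0.343).

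Among carriers of glucose and its phosphate, Slc37a1, which exchanges glucose-6-phosphate for phosphate, had log2 signals between 7.87 and 7.95 on the CT6 arrays and between 8.06 and 8.20 on the CT18 arrays. The times did not overlap, and the rise was 0.21 ± 0.0401 (adjusted p 0.00735). Slc45a1, a proton-linked sugar carrier of brain, fell by 0.24 ± 0.0524 (adjusted p 0.0128). The insulin-regulated glucose transporter Slc2a4 was called higher by 0.14 (adjusted p 0.0461), but its wild-type arrays were 7.14 and 7.06 at CT6 and 7.12 and 7.13 at CT18, and those of the knockout 7.07 and 7.13 at CT6 and 7.31 and 7.40 at CT18. The times overlapped in wild type, and the call was lost in each of the 8 fits without 1 array (adjusted p up to 0.145). Neither the blood-brain barrier glucose transporter Slc2a1 (0.03, adjusted p 0.801) nor the neuronal glucose transporter Slc2a3 (-0.05, adjusted p 0.573) was called.

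Of 37 carriers of amino acids and peptides, 9 fell at CT18 (24.3%, beside 6.79% of all genes tested) and 4 rose (10.8%, beside 10%). The list's median was -0.0200, close to that of all genes tested (0.0104). Slc6a15 encodes a sodium-dependent carrier of branched-chain amino acids and proline in neurons. Slc6a15 had log2 signals of 10.50 and 10.48 at CT6 and 10.07 and 10.13 at CT18 in wild type, against 10.45 and 10.50 at CT6 and 10.11 and 10.18 at CT18 in the knockout. The times were well apart in both genotypes, and the fall was 0.36 ± 0.0395 (adjusted p 0.000281).

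Slc6a17 encodes the related carrier that loads neutral amino acids into synaptic vesicles. Slc6a17 had log2 signals of 11.49 and 11.39 at CT6 and 11.04 and 11.09 at CT18 in wild type, against 11.36 and 11.38 at CT6 and 11.01 and 11.14 at CT18 in the knockout. CT6 and CT18 did not overlap, and the fall was 0.33 ± 0.0445 (adjusted p 0.000917). Slc7a14, an intracellular relative of the cationic amino acid transporters, had log2 signals of 10.15 and 10.33 at CT6 and 10.00 and 9.93 at CT18 in wild type, against 10.34 and 10.42 at CT6 and 9.91 and 10.04 at CT18 in the knockout. The lowest CT6 array was above the highest CT18 array, and the fall was 0.34 ± 0.0524 (adjusted p 0.00206). Slc7a10, the Asc-1 exchanger of glycine and of L- and D-serine, had log2 signals from 9.49 to 9.66 on the CT6 arrays and from 9.12 to 9.40 on the CT18 arrays. Again the times did not overlap, and the fall was 0.30 ± 0.0457 (adjusted p 0.00212).

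Both glutamine carriers of the SNAT family among the changed genes were lower at CT18. Slc38a3 fell by 0.25 ± 0.0501 (adjusted p 0.00849), and was not called with both arrays of the highest leptomeningeal signal left out (adjusted p 0.0612, added after seeing the data). Slc38a5 fell by 0.24 ± 0.0595 (adjusted p 0.0233), and its call was lost without wild type CT6 B, wild type CT18 A, knockout CT6 B or knockout CT18 A (adjusted p up to 0.0878). The neuronal SNAT gene Slc38a1 was not called (-0.14, adjusted p 0.0521), and its dimmer probe set differed by 0.00404. The 3 other falls, each under 0.2, were those of the taurine transporter Slc6a6 (-0.16), the proton-linked amino acid transporter Slc36a4 (-0.15) and the cationic amino acid transporter Slc7a1 (-0.13).

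The largest rise of the 222 was in the same list. Slc38a11, a little-studied gene of the SNAT family, had log2 signals of 7.65 and 7.54 at CT6 and 8.06 and 8.11 at CT18 in wild type, against 7.40 and 7.72 at CT6 and 8.12 and 8.09 at CT18 in the knockout. All CT18 arrays were above all CT6 arrays, and the arrays of the knockout at CT6 lay 0.32 apart. The rise was 0.52 ± 0.0654, or 1.43-fold (adjusted p 0.000674). The other rises in the list were smaller: the lysosomal peptide and histidine transporter Slc15a4 (0.21 ± 0.0451, adjusted p 0.0121), the neuronal glutamate and cysteine transporter Slc1a1 (0.19, adjusted p 0.0492) and Slc7a4 (0.15, adjusted p 0.0468). Slc15a4 was not called with both arrays of the highest leptomeningeal signal left out (adjusted p 0.0533, added after seeing the data). The cystine-glutamate exchanger Slc7a11 was not called (0.03, adjusted p 0.85).

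**Figure D2:**
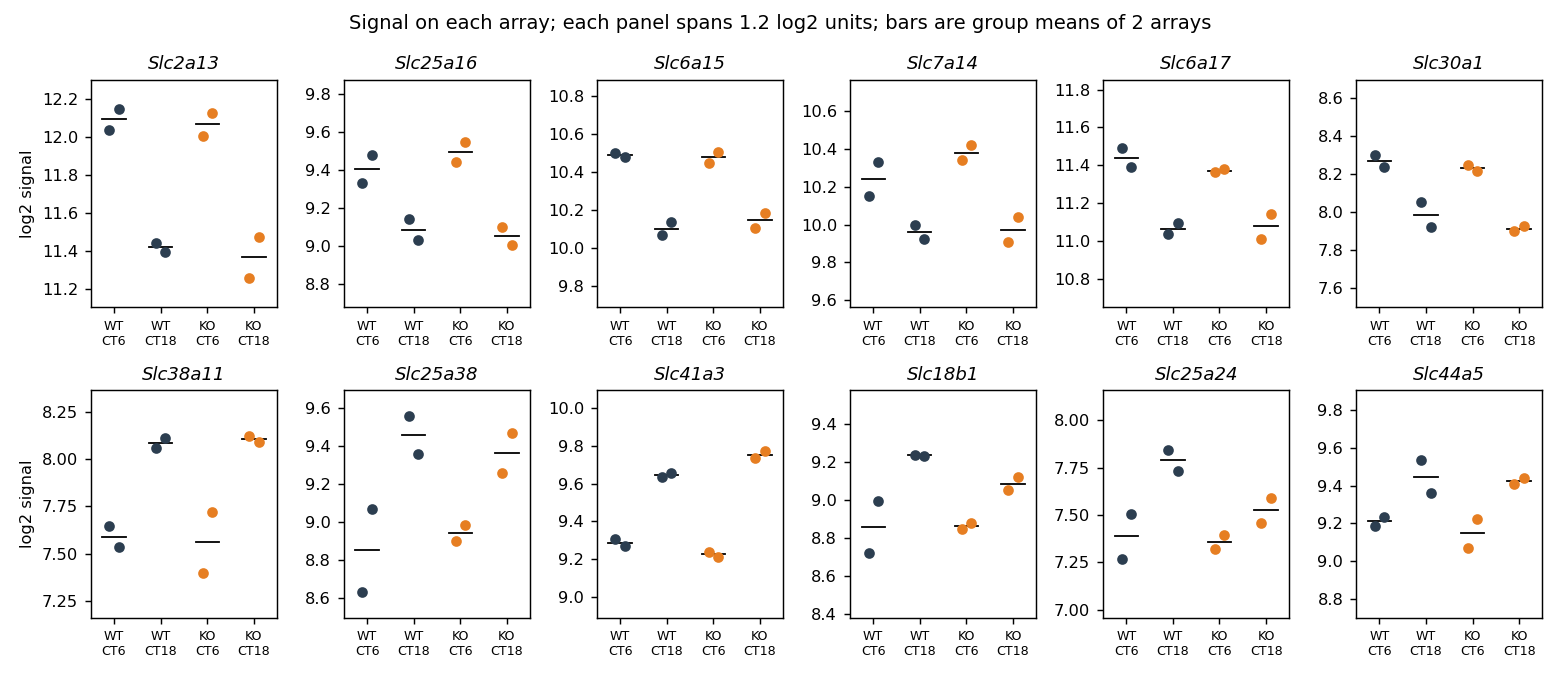
Log2 signal on each of the 8 arrays (points; dark, wild type; orange, knockout) for 6 genes lower at CT18 (upper panels) and 6 higher at CT18 (lower panels), with bars at the means of the 2 arrays of a group. Every panel spans the same number of log2 units, and in each the 2 genotypes show the same direction between CT6 and CT18. The genes were called on the mean of the 2 genotypes, which favours a shared direction.

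Of 24 carriers of the trace metals zinc, iron, copper and manganese, 5 fell (20.8%, beside 6.79% of all genes tested) and 1 rose (4.17%, beside 10%), with a list median of -0.00466. Slc30a1, the main exporter of zinc at the cell surface, had log2 signals of 8.30 and 8.24 at CT6 and 8.05 and 7.92 at CT18 in wild type, against 8.25 and 8.22 at CT6 and 7.90 and 7.93 at CT18 in the knockout. The times did not overlap, and the fall was 0.30 ± 0.0423 (adjusted p 0.00128). Slc30a4, which moves zinc into vesicles, had log2 signals from 9.15 to 9.27 on the CT6 arrays and from 8.84 to 9.02 on the CT18 arrays. These did not overlap either, and the fall was 0.25 ± 0.0483 (adjusted p 0.00671).

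The importers were split. Slc39a14, which takes up zinc, iron and manganese, had log2 signals of 8.08 and 8.14 at CT6 and 7.91 and 7.65 at CT18 in wild type, against 7.99 and 8.10 at CT6 and 7.67 and 7.91 at CT18 in the knockout. Its 2 arrays at CT18 lay wide apart in each genotype, but below those at CT6. The fall was 0.29 ± 0.0702 (adjusted p 0.0199), and the call was lost without wild type CT6 B, wild type CT18 B, knockout CT6 B or knockout CT18 A (adjusted p up to 0.0714). The copper importer Slc31a1 fell by 0.17 (adjusted p 0.0187) and the zinc importer Slc39a6 by 0.15 (adjusted p 0.0260), whereas its close relative Slc39a10 rose by 0.23 ± 0.0519 (adjusted p 0.0147). The call of Slc39a10 was lost without wild type CT6 A or knockout CT6 A (adjusted p up to 0.0547) and without both arrays of the highest leptomeningeal signal (adjusted p 0.0922, added after seeing the data). The manganese exporter Slc30a10 was not called (0.19, adjusted p 0.0575).

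Of 38 carriers of the mitochondrial family, 5 rose (13.2%) and 2 fell (5.26%), shares near the 10% and 6.79% of all genes tested, with a list median of 0.00953. Slc25a38 encodes the carrier that brings glycine into mitochondria for haem synthesis. Slc25a38 had log2 signals of 8.63 and 9.07 at CT6 and 9.56 and 9.36 at CT18 in wild type, against 8.90 and 8.98 at CT6 and 9.26 and 9.47 at CT18 in the knockout. The times did not overlap, although the arrays of wild type at CT6 lay 0.44 apart. The rise was 0.52 ± 0.0933 (adjusted p 0.00511).

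Slc25a24 and Slc25a23, both calcium-sensitive carriers that exchange ATP-magnesium for phosphate, rose by 0.28 ± 0.0595 (adjusted p 0.0102) and by 0.23 ± 0.0515 (adjusted p 0.0154). Slc25a24 had log2 signals of 7.27 and 7.50 at CT6 and 7.85 and 7.74 at CT18 in wild type, against 7.32 and 7.40 at CT6 and 7.46 and 7.59 at CT18 in the knockout, so that 1 wild-type CT6 array was above 1 knockout CT18 array. It was not called with both arrays of the highest leptomeningeal signal left out (adjusted p 0.0802, added after seeing the data). The call of Slc25a23 was lost without wild type CT6 A, wild type CT18 B or knockout CT18 B (adjusted p up to 0.0564). The ADP/ATP carrier Slc25a4 (0.15, adjusted p 0.0457) and Slc25a35 (0.15, adjusted p 0.0384) were called by less.

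Both falls of the mitochondrial list were among those kept under every alternative. Slc25a16, linked to the uptake of coenzyme A, had log2 signals of 9.33 and 9.48 at CT6 and 9.14 and 9.03 at CT18 in wild type, against 9.44 and 9.55 at CT6 and 9.10 and 9.0 at CT18 in the knockout. Every CT6 array was above every CT18 array, and the fall was 0.38 ± 0.0516 (adjusted p 0.000999). Slc25a36, a carrier of pyrimidine nucleotides, had log2 signals from 10.49 to 10.59 on the CT6 arrays and from 10.18 to 10.39 on the CT18 arrays. It fell by 0.23 ± 0.0462 (adjusted p 0.00905), and its second, dimmer probe set differed in the same direction by -0.14.

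Among 14 exchangers of sodium, protons, calcium and magnesium, 2 rose and 1 fell (21.4% called, beside 16.8% of all genes tested), with a list median of -0.0509. Slc41a3, a magnesium transporter, had log2 signals of 9.31 and 9.27 at CT6 and 9.63 and 9.66 at CT18 in wild type, against 9.24 and 9.21 at CT6 and 9.73 and 9.77 at CT18 in the knockout. The arrays of each group lay close together and the times were far apart. The rise was 0.44 ± 0.0361, or 1.36-fold, with the smallest adjusted p of the 222 (4.25e-05). The mitochondrial sodium-calcium exchanger Slc8b1 rose by 0.17 ± 0.0391 (adjusted p 0.0185), and the endosomal sodium-proton exchanger Slc9a9 fell by 0.14 ± 0.0361 (adjusted p 0.0226). The plasma membrane sodium-calcium exchanger Slc8a1 was not called (-0.17, adjusted p 0.0572), and its second probe set differed by -0.03.

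Of 6 neurotransmitter carriers above the level filter 1 was called (16.7%, beside 16.8% of all genes tested): Slc18b1, the vesicular transporter of polyamines. Slc18b1 had log2 signals of 8.72 and 9.0 at CT6 and 9.24 and 9.23 at CT18 in wild type, against 8.85 and 8.88 at CT6 and 9.05 and 9.12 at CT18 in the knockout. CT18 lay above CT6 without overlap, and the rise was 0.30 ± 0.0580 (adjusted p 0.00704).

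The vesicular GABA transporter Slc32a1 had log2 signals of 9.15 and 8.99 at CT6 and 9.02 and 9.06 at CT18 in wild type, against 8.97 and 8.94 at CT6 and 9.15 and 9.13 at CT18 in the knockout. These overlapped in wild type, and the difference of 0.08 was not called (adjusted p 0.27). Neither were the GABA transporter Slc6a11 (0.12, adjusted p 0.0922), the glycine transporter Slc6a9 (0.13, adjusted p 0.123), the monoamine transporter Slc29a4 (0.02, adjusted p 0.862) and the vesicular glutamate transporter Slc17a6 (-0.15, adjusted p 0.208). The arrays of Slc17a6 ran from 6.85 to 7.33, just above the level filter.

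None of the 11 chloride and bicarbonate carriers was called by limma, beside 16.8% of all genes tested. An unadjusted p under 0.05 was held by 2 of them, beside 30.5% of all genes. Slc12a5, the potassium-chloride cotransporter that extrudes chloride from neurons, had log2 signals of 9.80 and 9.62 at CT6 and 9.75 and 9.88 at CT18 in wild type, against 9.62 and 9.51 at CT6 and 9.78 and 9.85 at CT18 in the knockout. The knockout arrays did not overlap between times and the wild-type arrays did, and the difference was 0.17 ± 0.0537 (adjusted p 0.0526). Slc12a2, the cotransporter that loads chloride, differed by 0.01 (adjusted p 0.922). The bicarbonate cotransporter Slc4a4, a gene of astrocytes, differed by -0.01 (adjusted p 0.916). The 4 genes of the phosphate list held no call either, and none had an unadjusted p under 0.05.

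Of 15 carriers of lipids, choline and vitamins 1 was called (6.67%, beside 16.8% of all genes tested), the rise of the choline transporter-like gene Slc44a5 (0.26 ± 0.0518, adjusted p 0.00893), with log2 signals from 9.07 to 9.23 on the CT6 arrays and from 9.36 to 9.53 on the CT18 arrays. Its call was lost with both arrays of the highest leptomeningeal signal left out (adjusted p 0.0687, added after seeing the data). Of 25 carriers of nucleosides and nucleotide sugars 1 was called (4%), the fall of Slc35b3, which brings the sulphate donor PAPS into the Golgi (-0.20 ± 0.0397, adjusted p 0.00867), and the same alternative ended that call (adjusted p 0.0665).

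Of 24 carriers of organic ions, 2 rose and 1 fell (12.5% called, beside 16.8% of all genes tested). These were the sulphate transporter Slc26a11 (0.19 ± 0.0504, adjusted p 0.0271), the lipocalin receptor Slc22a17 (0.15, adjusted p 0.0494) and the carnitine transporter Slc22a21 (-0.16, adjusted p 0.0321). Neither the lactate transporter Slc16a1 (-0.19, adjusted p 0.0796) nor the ergothioneine transporter Slc22a4 (-0.05, adjusted p 0.58) was called. Of the 7 genes in no list, 2 fell (28.6%, beside 6.79% of all genes tested). Slc9a3r1, which bears the family's name but encodes the scaffold protein NHERF1, had log2 signals from 9.27 to 9.40 on the CT6 arrays and from 9.0 to 9.13 on the CT18 arrays, and fell by 0.27 ± 0.0434 (adjusted p 0.00275). The urea transporter Slc14a2 fell by 0.18 ± 0.0462 (adjusted p 0.0245), and the call was lost without wild type CT6 B, wild type CT18 A, knockout CT6 B or knockout CT18 A (adjusted p up to 0.0890), and at 0.108 without both arrays of the highest leptomeningeal signal, added after seeing the data.

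How far the calls held without single arrays differed between genes. Fits without an array have fewer degrees of freedom for every gene, so calls are lost more easily in them. The calls of 15 genes held in every alternative that tested them: the 10 falls of Slc2a13, Slc25a16, Slc25a36, Slc30a1, Slc30a4, Slc6a15, Slc6a17, Slc7a10, Slc7a14 and Slc9a3r1, and the 5 rises of Slc18b1, Slc25a38, Slc37a1, Slc38a11 and Slc41a3. In 21 of the 42 genes the call was lost without at least 1 of the 8 arrays. Of these, 6 kept it in 4 to 7 of the 8 fits and are named with the arrays above. The other 15 kept it in at most 3 of 8, with a highest adjusted p between 0.0661 and 0.155: Slc31a1, Slc39a6, Slc9a9, Slc6a6, Slc36a4, Slc7a1, Slc22a21, Slc26a11, Slc22a17, Slc1a1, Slc7a4, Slc8b1, Slc25a4, Slc25a35 and Slc2a4. Each of the 8 arrays ended calls among these 15. Without both arrays of the highest leptomeningeal signal (added after seeing the data) 21 of the 42 calls were lost, with adjusted p of 0.0506 to 0.261. Besides Slc38a3, Slc15a4, Slc25a24, Slc44a5, Slc35b3, Slc5a3, Slc39a10 and Slc14a2 these were all of the 15 just named except Slc22a21 and Slc25a35. With the marker mean as a covariate 10 were lost, with adjusted p of 0.0532 to 0.0813: Slc1a1, Slc22a17, Slc22a21, Slc25a35, Slc25a4, Slc2a4, Slc36a4, Slc6a6, Slc7a1 and Slc7a4.

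The promoters of the changed genes were read for motifs of the clock and of cAMP signalling, as a description only. The RefSeq table of assembly GRCm38.p6 gave the 250 bases before the start of 176 of the 222 genes, 29 of them among the 42. Both strands were searched for the E-box CACGTG, which binds CLOCK and BMAL1. It occurred in 4 of the 29 changed genes (13.8%) and in 26 of 147 genes that were not called (17.7%). Of all 27025 genes with a window, 6.86% held it. A gene counted if any of its windows held the motif, and the 27025 were not limited to the genes tested. Over all solute carriers with a window the E-box stood in 30 of 176. The share was lower in the changed genes than in the others by count, and neither difference was tested. The 4 stretches are shown 5′ to 3′ on the gene's own strand, with the E-box in capitals, because they are the changed carriers with this motif:
Slc25a36: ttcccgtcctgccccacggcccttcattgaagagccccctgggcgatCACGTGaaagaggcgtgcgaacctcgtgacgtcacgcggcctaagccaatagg
Slc7a14: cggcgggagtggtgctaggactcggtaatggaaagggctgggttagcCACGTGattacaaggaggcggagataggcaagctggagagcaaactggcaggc
Slc38a5: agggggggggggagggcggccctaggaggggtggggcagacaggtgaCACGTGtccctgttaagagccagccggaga
Slc41a3: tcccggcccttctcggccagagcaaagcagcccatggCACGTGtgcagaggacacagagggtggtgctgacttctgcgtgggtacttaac

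The stretch of Slc25a36 lies at chr9:97111176-97111275 on the minus strand, and its E-box begins 187 bases before the start. That of Slc7a14 lies at chr3:31310336-31310435 on the minus strand, with the motif 69 bases before the start. For Slc38a5 it is chrX:8271304-8271380 on the plus strand, with 30 bases to the start, and for Slc41a3 chr6:90618996-90619085 on the plus strand, with 213 bases. The first 3 of these genes were lower at CT18 and Slc41a3 was higher, so the motif stood before genes of both directions. The stretch of Slc25a36 also holds the full cAMP response element TGACGTCA, the 1 match among the 29 and present in 1.77% of all genes with a window.

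The shorter element TGACG, part of the full one, was found in 6 of the 15 genes that fell and have a window. It was found in 1 of the 14 that rose and in 42 of 147 that were not called (28.6%). Of all genes with a window, 19.8% held it. The 6 among the falls were Slc25a16, Slc25a36, Slc31a1, Slc35b3, Slc6a17 and Slc7a1. Of the other letters searched, CACGTT and TTATGNAA were found in 0 of the 29 (4.5% and 3.63% of all genes with a window). GAANNTTC was found in 1 of the 29, Slc6a17 (7.73%). These counts describe letters in a window and were not tested.

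Within wild type alone, 7 genes were higher at CT18 (3.15% of the 222, against 4.4% of all genes tested) and 7 were lower (3.15%, against 2.54%). That is 6.31% of the 222 in all, beside 6.94% of all genes tested. On the values as deposited the split was 8 higher and 4 lower, and with each array centred on its median 7 and 4. The count of 14 was lower in each fit without 1 wild-type array. Such fits have fewer degrees of freedom for every gene, and the share of all genes called in them was not compared. Within the knockout alone, 3 were higher (1.35%, against 3.63%) and 11 lower (4.95%, against 3.53%). That is again 14 genes (6.31%, beside 7.16% of all genes tested), and the count was lower in each fit without 1 knockout array. With the leptomeningeal marker mean as a covariate the count in the knockout was 7.

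Called in both genotypes were 2 rises, Slc38a11 and Slc41a3, and 6 falls, Slc2a13, Slc25a16, Slc6a15, Slc6a17, Slc30a1 and Slc7a10. Slc2a13 differed by -0.68 in wild type (limma adjusted p 0.000984) and by -0.70 in the knockout (0.000832). Slc41a3 differed by 0.36 (adjusted p 0.00304) and 0.53 (adjusted p 0.00029), and Slc38a11 by 0.49 (adjusted p 0.0123) and 0.55 (adjusted p 0.00773). Both calls held under every alternative in 2 of these 8 genes, Slc2a13 and Slc41a3, and Slc6a15 lost 1 call, in the knockout without knockout CT18 A (adjusted p 0.0617).

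The wild-type calls of Slc25a16, Slc30a1 and Slc7a10 were lost on the values as deposited, with median centring and without single wild-type arrays, with adjusted p up to 0.175, 0.131 and 0.199. Without CT6 B or CT18 B none of the 3 was called in wild type, Slc30a1 and Slc7a10 were not called without CT6 A, and Slc25a16 and Slc7a10 were not called without CT18 A. The wild-type call of Slc38a11 was lost without CT6 B, CT18 A or CT18 B (adjusted p up to 0.0973), and that of Slc6a17 without CT6 A or CT18 A (adjusted p up to 0.0741 over all alternatives). In the knockout, Slc25a16 was lost without CT18 B (0.0591) and Slc38a11 without CT18 A (0.0581). The knockout calls of Slc30a1, Slc6a17 and Slc7a10 were lost without CT6 A or CT18 A, with adjusted p up to 0.0769, 0.137 and 0.135. That of Slc30a1 was also lost without CT18 B, and those of Slc6a17 and Slc7a10 without CT6 B. With the leptomeningeal marker mean as a covariate, the knockout calls of Slc30a1 and Slc7a10 were lost and that of Slc6a17 was kept.

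Called in wild type alone were 6 genes: Slc25a38 (0.61 in wild type, 0.42 in the knockout), Slc18b1 (0.38, 0.22), Slc25a24 (0.40, 0.17), Slc37a1 (0.23, 0.18), Slc5a3 (0.28, 0.11) and Slc9a3r1 (-0.32, -0.22). With the leptomeningeal marker mean as a covariate, only Slc37a1 among them lost its wild-type call.

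Called in the knockout alone were another 6. They were Slc7a14 (-0.28 in wild type, -0.41 in the knockout), Slc38a3 (-0.21, -0.29), Slc25a36 (-0.18, -0.27), Slc35b3 (-0.10, -0.30), Slc22a21 (-0.06, -0.26) and Slc2a4 (0.02, 0.25). All of them but Slc7a14 lost the knockout call with the leptomeningeal marker mean as a covariate. The test of the difference itself, the interaction of genotype and time, called none of the 42, and its smallest adjusted p among them was 0.944. Its largest size among the 42 was that of Slc25a24 (-0.24). A call in 1 genotype alone is therefore not shown to differ from the other genotype. All 12 such calls were lost without at least 1 array, with a highest adjusted p between 0.0836 and 0.206. The remaining 22 of the 42 genes were called over both genotypes and in neither alone.

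**Figure D3:**
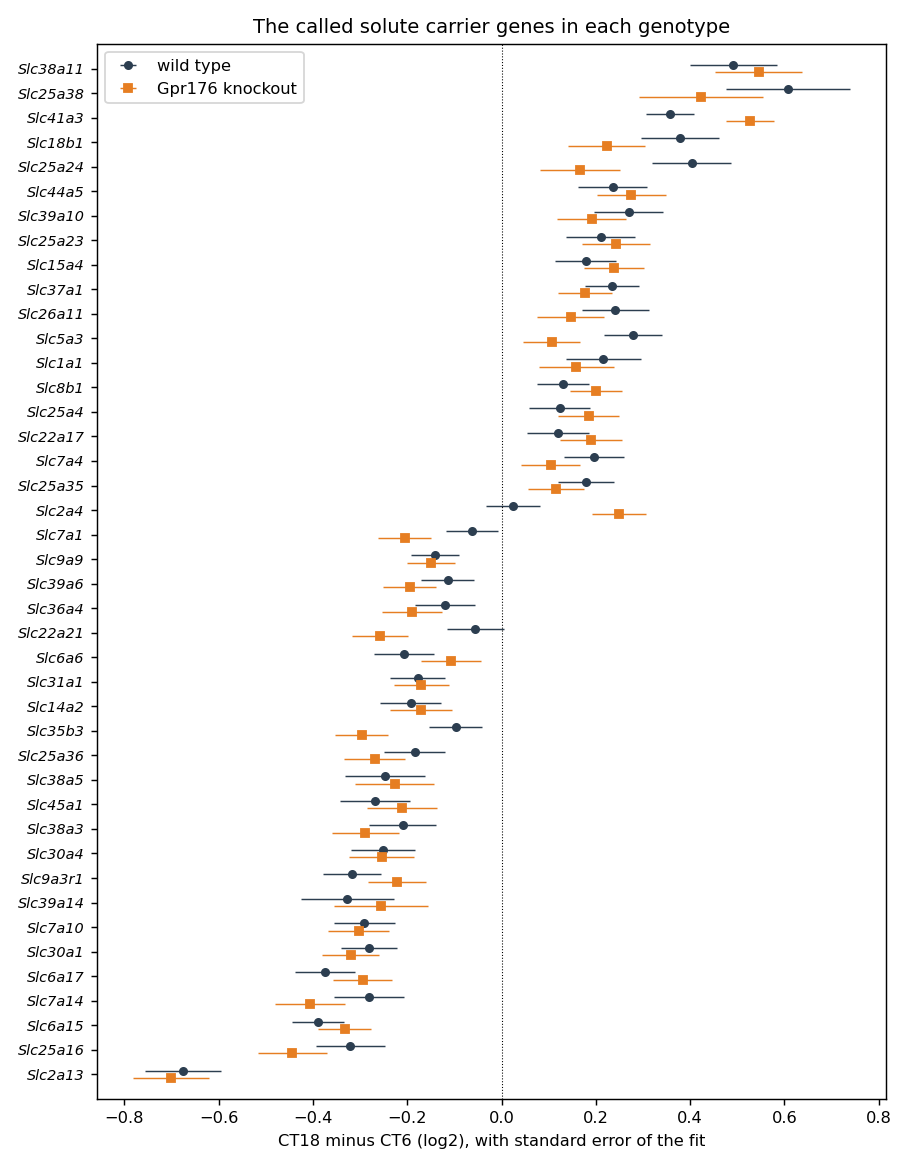
CT18 minus CT6 difference (log2, horizontal axis) of each of the 42 called genes (vertical axis) in wild type (dark circles) and in the knockout (orange squares), with bars of 1 standard error of the fit. Wild type and knockout lie on the same side of 0 for all 42 genes, from Slc2a13 (-0.68 and -0.70) to Slc38a11 (0.49 and 0.55).

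Between genotypes, none of the 222 genes was called by limma over both times (0.0241% of all genes tested were), at CT6 (0.00803%), at CT18 (0.00803%) or in the interaction (0%). At an unadjusted p under 0.05 stood 24 genes over both times (10.8%, beside 12.0% of all genes), 7 at CT6 (3.15%, beside 4.24%), 28 at CT18 (12.6%, beside 12.5%) and 11 in the interaction (4.95%, beside 4.86%). These shares are near those of all genes. The signs leaned to lower values in the knockout: over both times 148 of 222 differences were negative, 141 at CT6 and 152 at CT18. Over both times 33.3% were positive, beside 43.9% of all genes, and the medians were -0.0238 and -0.0101 on the log2 scale. The positive share was 36.5% at CT6, beside 46.7% of all genes, and 31.5% at CT18, beside 43.3%. All genes thus leaned the same way, but by less. The genes were measured on the same arrays and are not independent, and the lean was not tested.

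The smallest p over both times was that of Slc25a10, the mitochondrial dicarboxylate carrier. Slc25a10 had log2 signals of 8.04, 8.05, 7.87 and 7.92 on the wild-type arrays and 8.14, 8.18, 8.06 and 8.20 on the knockout arrays. The genotypes did not overlap, and the difference was 0.17 ± 0.0430 (limma adjusted p 0.342). Slc4a4, the sodium-bicarbonate cotransporter, had log2 signals from 11.18 to 11.27 on the wild-type arrays and from 10.98 to 11.12 on the knockout arrays. Its genotypes did not overlap either, and the difference was -0.16 (adjusted p 0.342). The others of the 5 smallest p were Slc22a21 (-0.15), the zinc transporter Slc30a5 (-0.14) and Slc38a6 (-0.12), with adjusted p of 0.342 to 0.353. In 5 of the 222 genes (Slc25a10, Slc8a2, Slc25a28, Slc4a4 and Slc30a5) the genotypes did not overlap, beside 4.22% of all genes.

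At CT18 the 5 smallest p were those of Slc38a6 (-0.23), Slc22a21 (-0.25), Slc12a9 (0.25), Slc2a4 (0.23) and Slc25a10 (0.24), each with an adjusted p of 0.319. Slc12a9, a cation-chloride cotransporter relative, had log2 signals of 8.20 and 8.27 in wild type at CT18 and of 8.53 and 8.43 in the knockout at CT18, which did not overlap. At CT6 its arrays were 8.34 and 8.39 in wild type and 8.35 and 8.27 in the knockout, which did. At CT6 the smallest p belonged to Slc4a1ap (-0.17), Slc37a3 (-0.23), the carnitine carrier Slc25a20 (0.16), Slc30a10 (-0.20) and Slc6a11 (-0.14), with an adjusted p of 0.975.

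In the interaction they were Slc12a9 (0.29), Slc22a13b (0.30), Slc4a1ap (0.23), Slc38a6 (-0.22) and the synaptic vesicle zinc transporter Slc30a3 (0.42), with an adjusted p of 0.944. The median standard error of an interaction was 0.0899, and values of 0.29 to 0.42 were not called. The targeted gene lies on chromosome 2. The nearest of 24 protein-coding solute carrier genes on that chromosome, Slc30a4, was 108 protein-coding genes away and differed between genotypes by -0.04 (adjusted p 0.745), and none of the 24 was called.

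**Figure D4:**
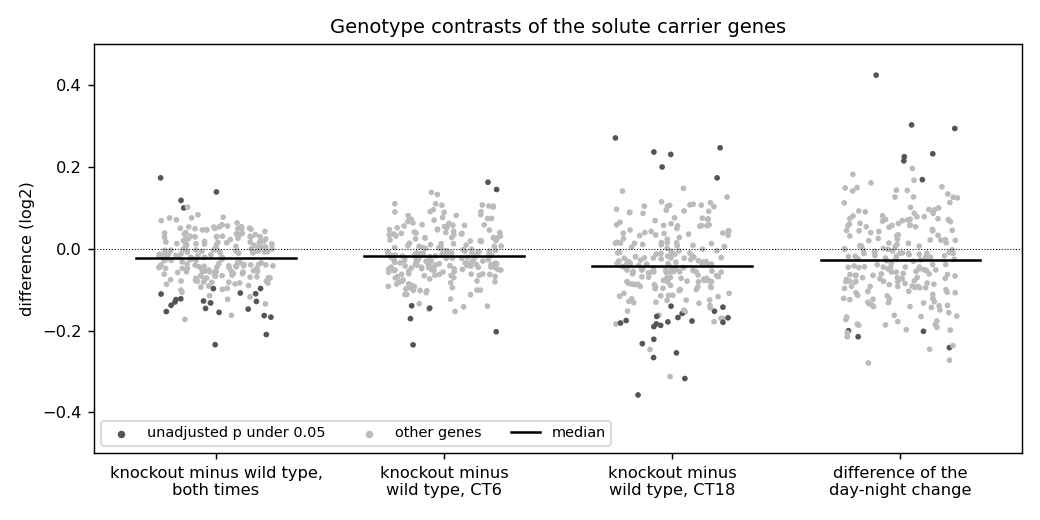
Each point is 1 of the 222 genes, placed by its log2 difference (vertical axis) in the 4 genotype contrasts (horizontal axis); dark points had an unadjusted p under 0.05 and bars are medians. The medians lie between -0.0423 and -0.0183, and no gene was called after adjustment in any of the 4.

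The spread between arrays of a group differed widely over the 222 genes, and with it the size of change that could be seen. The pooled SD of the 2 arrays of a group had a median of 0.0651 and ran from 0.0118 to 0.2515. The highest was that of the organic anion transporter Slc22a8, with log2 signals of 8.36, 8.71, 8.81 and 8.24 on the wild-type arrays (CT6 A and B, then CT18 A and B) and of 8.62, 8.38, 8.19 and 8.24 on the knockout arrays in the same order. The dicarboxylate transporter Slc13a3, in that order, had 8.56, 8.78, 8.76 and 8.46 and then 8.64, 8.48, 8.20 and 8.31. In wild type both were higher at CT6 B and CT18 A, and in the knockout at CT6 A, which are the arrays with the highest leptomeningeal marker means (7.89, 8.15 and 8.06). The part of that tissue in their values was not tested. Slc25a38 came next with a pooled SD of 0.1896. In 3 of the 4 groups its higher array was also the one with the higher marker mean, the exception being the knockout at CT6, and their part in its values was not tested.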

How the data were processed

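RNA of the 8 pools was measured on whole-transcript arrays. The authors deposited 1 table of log2 values for 28853 probe sets; earlier steps such as background correction and normalization were not given in the sources used here. Array medians of the deposited table ran from 7.34 to 7.39 and the lower quartiles spread over 0.139, above the limit of 0.1 set for further normalization, so the 8 columns were quantile normalized. Probe sets were named from the platform's annotation: 21789 had 1 symbol, 1621 had several and 5443 were unnamed here. The brightest probe set of each of 19938 genes was used (12 of the 222 solute carrier genes had more than 1), and 12452 genes at or above the 40th percentile were tested. All 222 were matched by Entrez number to RefSeq.

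A mean per group was fitted with limma 3.58.1 in R 4.3.3 to all 8 arrays (4 residual degrees of freedom, prior 5.58), and 7 contrasts were taken. Adjusted p-values are Benjamini-Hochberg over the 12452 genes, with calls made below 0.05. The errors given after ± are standard errors of the fit. The p-values measure the spread between pools, and the number of arrays limits the precision. On simulated data 200 of 12452 genes were changed, over 10 draws of the day-night contrast over both genotypes. Of changes of 0.25, 85.5% were called, and of changes of 0.5, 99.7%, and 6.75% of calls were false. The simulated noise was independent between genes and drawn from the fit's own variances, with no variation shared by genes of a tissue. In the data 2096 genes were called, more than were changed in the simulation. The simulated shares may therefore not hold for these calls.

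The solute carrier genes, their lists by substrate and the marker lists were chosen with earlier results of these data known. Genes were placed in the lists largely by the number of their family, so a member may carry another substrate than its list names. Every called gene of the day-night contrast could be named, with full statistics for the 12 largest rises and falls, and in each list up to 4 genes by smallest p. In the genotype contrasts the 5 smallest p were named, and a fixed set of transporters of neurons, glia and barrier was always named. Sequences are from RefSeq, assembly GRCm38.p6. Alternatives were values as deposited, median centring, other filters, the mean of probe sets, an intensity trend, array weights, the replicate letter as a block, a leptomeningeal covariate, a stricter threshold and leaving out each array.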

Additional observations from a re-analysis of the deposited data

How the results depend on the processing

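No value of a single gene changed sign in a call: of 1997 recomputed, 1635 kept their side of the threshold, 350 fell short of it, 12 newly passed it and 0 reversed. The 1997 include values of genes not called in the main fit, which could not fall short, so the 350 all come from called genes. The count of genes changed over both genotypes (42) was 18 at an adjusted p under 0.01, 25 to 34 without 1 array (lowest without wild type CT6 B) and 25 with wild type CT18 A and knockout CT6 A both left out, added after seeing the data. In wild type (14) it was 4 at an adjusted p under 0.01, 4 to 15 without 1 array and 6 with both arrays left out. In the knockout (14) it was 5 at an adjusted p under 0.01, 23 with the filter at the 60th percentile (8 higher, 15 lower), 7 with the leptomeningeal covariate, 3 to 14 without 1 array and 7 with both left out. Fits without an array have fewer degrees of freedom for every gene, and the share of all genes called in them was not compared. Where a group kept 1 array, that array was assumed to vary like the other groups. The counts of the genotype contrasts and the interaction stayed 0 in all these fits. The labels do not say whether the letters A and B pair the arrays. Correlations of deviations from group means, A arrays against A arrays, ran from -0.222 to 0.257. Those of wild type at CT18 with the other groups were negative. The knockout at CT18 had 0.219 with wild type at CT6 and 0.257 with the knockout at CT6. Whether the letters mark a pairing was not tested. With the letter as a replicate block the counts were 37, 16 and 14 over both genotypes, in wild type and in the knockout, and with the letters of wild type at CT18 exchanged, added after seeing the data, 46, 21 and 27. With 2 arrays a group, the interaction had a median standard error of 0.0899 and none was called at any size, and dim genes below the filter were not described.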
